A study of Mus musculus with 16 samples.

Results

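The 8 genes described here make, cut, clear or carry the amyloid peptide, or encode tau, in the mouse brain: App, Psen2, Ncstn, Aph1a, Adam10, Mapt, Mme and Apoe. They were taken as every non-control probe of the arrays whose gene name equals 1 of these symbols, which gave 12 of the 55681 probes and 8 of the 34821 gene names. No synuclein gene is among them. RNA of whole brains of male C57BL/6J mice was measured on 16 Agilent whole-genome arrays in 1 colour (Cy3), 4 arrays in each of 4 groups. The groups were Slc5a8-deficient mice of 18 months, wild-type mice of 18 months, Slc5a8-deficient mice of 4 months and wild-type mice of 4 months. The 18-month groups are called old and the 4-month groups young in the labels, and the study set the genotypes against each other at both ages. Slc5a8 encodes a membrane transporter that takes up lactate and other monocarboxylates together with sodium. The labels used here do not say how the deficient line was made or whether wild-type mice were littermates, and the series text describes the 4 arrays of each group as biological replicates.

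App, the amyloid precursor protein, is a membrane protein that is abundant in neurons. Adam10, the main alpha-secretase of neurons, cuts App within the amyloid sequence, whereas cutting by beta-secretase and then by gamma-secretase releases the amyloid peptide. Psen2 is a catalytic subunit of gamma-secretase, and Ncstn and Aph1a encode its partner subunits. Mme encodes neprilysin, a membrane peptidase that degrades the peptide, and Apoe encodes the main apolipoprotein of the brain, the protein part of lipoprotein particles, which is made largely by astrocytes and binds the peptide. Mapt encodes tau, a microtubule-binding protein of axons that forms the tangles of Alzheimer disease.

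None of the 8 genes differed between the genotypes or between the ages past the threshold. The threshold was an adjusted p of 0.05 in limma over all 33074 kept probes. Of the 12 probes, 0 were called in any of the 7 contrasts. Over all kept probes, 1.43% were called between the genotypes at 4 months, 1.35% at 18 months, 2.1% between the ages in deficient brains and 0.375% between the ages in wild-type brains. The share was 0.236% in the interaction of genotype and age, 3.12% in the genotype difference averaged over the ages and 1.45% in the age difference averaged over the genotypes. Nor had any of the 12 an unadjusted p under 0.05 with the main processing. By that looser limit 17.2% of all probes passed between the genotypes at 4 months and 10% at 18 months. Between the ages 20.4% passed in deficient and 6.3% in wild-type brains. In the interaction 10.8% passed, in the averaged genotype difference 15.2% and in the averaged age difference 14.6%. At the shares of calls a set of 12 probes may well hold 0 calls, so the count of 0 sets the members apart from no other genes. The median of the 12 absolute log2 differences was 0.13 between the genotypes at 4 months, where it was 0.18 over all kept probes. At 18 months these medians were 0.08 and 0.13, between the ages in deficient brains 0.16 and 0.21, and between the ages in wild-type brains 0.09 and 0.10.

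Levels are log2 of the processed spot intensity minus the 75th percentile of the same array, so that a level of 0 is that percentile. All 12 probes were well above background on all 16 arrays by the scanner software's own test. Levels depend on the probe as well as on the transcript, so levels of different probes are not compared. A difference on this scale is a log2 ratio, and in RNA of whole brain fewer cells of a type and less RNA per cell cannot be told apart.

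The 8 deficient arrays shared a slide, and the 8 wild-type arrays another. Genotype therefore cannot be told apart from slide, and within a slide the ages lay on different rows. The old group lay on row 2 of the deficient slide and on row 1 of the wild-type slide. The interaction of genotype and age therefore cannot be told apart from slide row, nor age within a genotype. The 75th percentile of the processed intensity ran from 624 to 1346 over the arrays. The pair with the lowest values, array 1 of the deficient 4-month group at 624 and array 2 of the wild-type 18-month group at 772, is called the arrays that stand apart. On both, probes rich in G and C read high. Over all kept probes, Spearman's rho between the G and C share of a probe and its deviation from its own mean was 0.64 and 0.48 on these arrays. It was 0.49 on array 4 of the wild-type 4-month group, -0.50 on array 2 of that group and between -0.31 and -0.07 on the other 12 arrays. By base composition array 4 of the wild-type 4-month group thus deviated as much as the second of the pair. It was kept wherever the pair was left out. On none of the 16 arrays did the single Slc5a8 probe rise well above background, so it checks nothing about the genotype labels. Of 10 neuronal marker genes 10 had a kept probe, of which 0 were called between the genotypes. They do not check whether the whole brain was taken.

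Some marker genes of tissues at the border of the brain, and of blood, differed between the groups. The 7 kept Hox genes, which mark spinal cord and caudal hindbrain, were all called lower at 18 than at 4 months in the average over genotypes, with a median log2 difference of -3.70. Over all probes 1.45% were called there in either direction. The 5 kept pituitary genes were also all lower, by a median of -4.84, with 1 called. Between the genotypes at 18 months 3 of the 7 Hox genes were called, all higher in deficient brains, against 0.85% of all probes. In red blood cells 4 of 6 marker genes were called lower, against 0.505%. With age in deficient brains 5 of these 6 were called lower at 18 months, against 0.934%. Of 8 genes of meninges and fibroblasts 7 were lower at 18 months in the average over genotypes. There 3 were called, against 1.45% of all probes in either direction. The 10 choroid plexus genes were all lower in deficient brains at both ages, with 0 called. The part of these tissues in the member results was not tested.

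On the arrays that stood apart, the members that read highest were those whose probes are richest in G and C, as described with the values further on. The array sequences of 4 probes are given in transcript sense with G and C in capitals. The first 3 hold 55% G and C and the fourth 43.3%. Their positions, in the mm9 (NCBI37) build given by the scanner files, are chr11:104189430-104189489 on the plus strand for the Mapt probe called Mapt A, chr7:20281732-20281791 on the minus strand for Apoe, chr3:95700163-95700222 on the plus strand for the Aph1a probe called Aph1a B and chr1:173998332-173998391 on the minus strand for Ncstn.
Mapt A: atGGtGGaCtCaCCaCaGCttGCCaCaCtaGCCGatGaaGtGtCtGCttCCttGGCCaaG
Apoe: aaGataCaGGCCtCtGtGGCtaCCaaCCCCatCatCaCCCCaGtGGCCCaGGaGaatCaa
Aph1a B: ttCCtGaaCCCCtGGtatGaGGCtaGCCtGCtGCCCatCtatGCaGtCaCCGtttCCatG
Ncstn: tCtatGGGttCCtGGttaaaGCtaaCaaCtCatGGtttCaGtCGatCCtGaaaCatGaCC

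**Figure D1:**
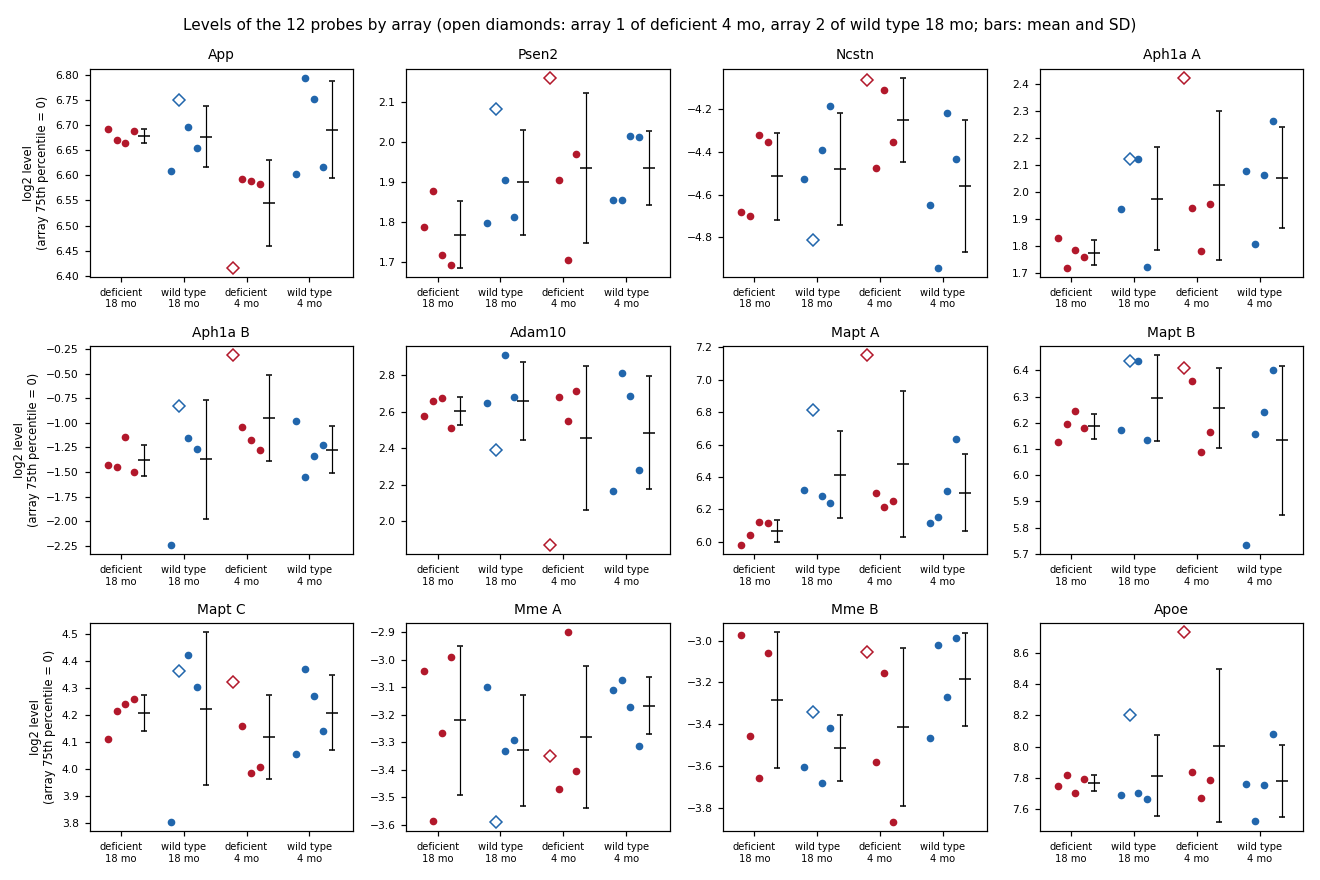
Level of each of the 12 member probes on the 16 arrays. The y axis is log2 processed intensity with the 75th percentile of the array at 0, points are arrays, bars are the group mean and SD (n = 4), and open diamonds are the arrays that stand apart (array 1 of the deficient 4-month group, array 2 of the wild-type 18-month group). Letters after a gene order its probes by mean level, and the groups overlap in nearly every panel, with Mapt A and Apoe at 7.15 and 8.73 on array 1 of the deficient 4-month group.

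The App probe, at chr16:84954712-84954771 on the minus strand, is printed on 2 spots that were averaged. App read 6.69, 6.67, 6.66 and 6.69 in deficient brains of 18 months, against 6.61, 6.75, 6.70 and 6.65 in wild-type brains of 18 months. At 4 months it read 6.42, 6.59, 6.59 and 6.58 in deficient brains, against 6.60, 6.79, 6.75 and 6.62 in wild-type brains. At 4 months every deficient array lay below every wild-type array, though the nearest 2 arrays, 6.59 and 6.60, almost touched. At 18 months the genotypes overlapped, and the 4 deficient arrays lay closer together than in any other group. The difference at 4 months was -0.15 ± 0.08 on the log2 scale (deficient minus wild type, SE, n = 4 each), with a 95% interval of -0.32 to 0.03 and an adjusted p of 0.369 in limma. Without array 1 of the deficient group it was -0.10.

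App also did not overlap between the ages in deficient brains, where the old arrays read higher. Between 18 and 4 months the difference was 0.13 ± 0.08 in deficient brains (adjusted p = 0.353) and -0.01 ± 0.08 in wild-type brains. The interval in wild-type brains ran from -0.19 to 0.16, so changes of App with age beyond 0.19 either way lay outside it. The interaction of genotype and age was 0.15 ± 0.11 (adjusted p = 0.645).

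Of the 12 probes, App alone did not overlap between the genotypes at 4 months, and over all probes with every value 9.41% did not overlap there. At 18 months Mapt A alone did not overlap, against 8.04% of all probes. Between the ages App and Mapt A, 2 of 12, did not overlap in deficient brains, against 17.4% of all probes, and 0 of 12 in wild-type brains, against 3.53%. None of these shares sets the members apart from other probes.

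Among the enzymes that cut App, the alpha-secretase Adam10 came to 2.61 ± 0.08 in deficient and 2.66 ± 0.21 in wild-type brains of 18 months (SD, n = 4 each). The Adam10 probe lies at chr9:70627859-70627918 on the plus strand. Its arrays read 1.87, 2.68, 2.55 and 2.71 in deficient brains of 4 months, against 2.17, 2.81, 2.69 and 2.28 in wild-type brains of 4 months. The value of 1.87 is from the array that stands apart, and the wild-type arrays 1 and 4 also read low, so the groups overlap fully. The genotype difference was -0.03 ± 0.19 at 4 months and -0.05 ± 0.19 at 18 months. Leaving out array 1 of the deficient 4-month group moved the difference at 4 months to 0.16 (adjusted p = 0.649). The 95% interval at 18 months ran from -0.45 to 0.35.

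No probe of a gamma-secretase subunit was called in any contrast. Psen2, the catalytic subunit, was read by 1 probe at chr1:182157610-182157669 on the minus strand. It read 1.79, 1.88, 1.72 and 1.69 in deficient brains of 18 months, against 1.80, 2.08, 1.91 and 1.81 in wild-type brains of 18 months. At 4 months its mean was 1.94 ± 0.19 in deficient and 1.94 ± 0.09 in wild-type brains (SD, n = 4 each). The old deficient arrays were the lowest group, but 1 of them lay within the wild-type range. The genotype difference was -0.13 ± 0.11 at 18 months (95% interval -0.35 to 0.10) and under 0.01 in size at 4 months (interval -0.23 to 0.23).

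Ncstn, the subunit that takes up the substrate, was read near the lower end of the measurable range, with a mean processed intensity of 48.0. It read -4.68, -4.70, -4.32 and -4.36 in deficient brains of 18 months, against -4.53, -4.81, -4.39 and -4.18 in wild-type brains of 18 months. The young readings were -4.06, -4.48, -4.11 and -4.36 in deficient brains, against -4.65, -4.94, -4.22 and -4.43 in wild-type brains. The young deficient arrays were on average the highest, yet 2 of them lay within the wild-type range. Its genotype difference at 4 months, 0.31 ± 0.17, had a 95% interval of -0.05 to 0.67 and an adjusted p of 0.368. At 18 months the difference was -0.04 ± 0.17.

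Aph1a, the scaffold of the complex, had a probe for transcript variant 1 (Aph1a A, at chr3:95702146-95702205 on the plus strand) and a probe for variant 2 (Aph1a B, printed above). Aph1a A read 1.83, 1.72, 1.79 and 1.76 in deficient brains of 18 months, against 1.94, 2.12, 2.12 and 1.72 in wild-type brains of 18 months. Its difference there was -0.20 ± 0.14 (adjusted p = 0.747), and the lowest wild-type array lay among the deficient ones. At 4 months Aph1a A averaged 2.02 ± 0.28 in deficient and 2.05 ± 0.19 in wild-type brains.

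Aph1a B varied most among the 12 probes within groups, with a residual SD of 0.40. It read -1.43, -1.45, -1.15 and -1.50 in deficient brains of 18 months, against -2.24, -0.83, -1.16 and -1.26 in wild-type brains of 18 months. At 4 months it read -0.31, -1.04, -1.18 and -1.27 in deficient brains, against -0.98, -1.55, -1.34 and -1.23 in wild-type brains. The reading of -0.31 is again from the array that stands apart. With it the genotype difference at 4 months was 0.32 ± 0.26 and without it 0.11, both not called (adjusted p = 0.550 and 0.870). The age difference in deficient brains, -0.43 ± 0.26, was the largest in size of the 12 probes in the 4 comparisons of 2 groups, with a 95% interval of -0.99 to 0.13.

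Tau had 3 probes, all annotated to transcript variant 1 of Mapt. Mapt A and Mapt B lie next to each other, at chr11:104189430-104189489 and chr11:104189496-104189555, and Mapt C lies further along the gene at chr11:104193241-104193300, all on the plus strand. Their G and C shares are 55%, 50% and 45%. Over the 16 arrays Pearson's r was 0.60 between Mapt A and Mapt B, 0.47 between Mapt B and Mapt C and 0.25 between Mapt A and Mapt C, so the probes of the gene followed each other only in part.

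Mapt A read 5.98, 6.05, 6.13 and 6.12 in deficient brains of 18 months, against 6.32, 6.81, 6.28 and 6.24 in wild-type brains of 18 months. The young arrays read 7.15, 6.30, 6.21 and 6.25 in deficient brains, against 6.12, 6.15, 6.31 and 6.64 in wild-type brains. Every old deficient array lay below every old wild-type array and below every young deficient array. The genotype difference at 18 months was -0.35 ± 0.19 (95% interval -0.76 to 0.07, adjusted p = 0.630 in limma). Without array 2 of the wild-type group it was -0.21. The age difference in deficient brains was -0.41 ± 0.19 (interval -0.83 to 0.00, unadjusted p = 0.052, adjusted p = 0.249), and without array 1 of the young group it was -0.19.

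The other tau probes showed no such gap. Mapt B read 6.13, 6.20, 6.24 and 6.18 in deficient brains of 18 months, against 6.17, 6.44, 6.44 and 6.13 in wild-type brains of 18 months. Mapt C read 4.11, 4.22, 4.24 and 4.26 in deficient brains of 18 months, against 3.80, 4.36, 4.42 and 4.30 in wild-type brains of 18 months. In both the genotypes overlapped, and the differences at 18 months were -0.11 ± 0.13 for Mapt B and -0.02 ± 0.13 for Mapt C. With the 3 probes averaged into 1 value for the gene, the difference at 18 months was -0.16 ± 0.13 (adjusted p = 0.799). At 4 months Mapt B averaged 6.26 ± 0.15 in deficient and 6.13 ± 0.28 in wild-type brains (SD, n = 4 each). Mapt C averaged 4.12 ± 0.16 in deficient and 4.21 ± 0.14 in wild-type brains of 4 months.

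Neprilysin was read by 2 probes that lie close to each other, Mme A at chr3:63185750-63185809 and Mme B at chr3:63184793-63184852, both on the plus strand. Both were dim, with mean processed intensities of 112 and 103. Mme A averaged -3.22 ± 0.27 in deficient and -3.33 ± 0.20 in wild-type brains of 18 months, and -3.28 ± 0.26 in deficient and -3.17 ± 0.10 in wild-type brains of 4 months (SD, n = 4 each). Mme B read -2.97, -3.46, -3.66 and -3.06 in deficient brains of 18 months, against -3.61, -3.34, -3.68 and -3.42 in wild-type brains of 18 months. At 4 months Mme B read -3.06, -3.58, -3.15 and -3.87 in deficient brains, against -3.47, -3.02, -3.27 and -2.99 in wild-type brains. The groups overlapped at both ages. The genotype difference of Mme B was 0.23 ± 0.19 at 18 months and -0.23 ± 0.19 at 4 months, and the interaction was 0.46 ± 0.27 (adjusted p = 0.556). For Mme A the interaction was 0.22 ± 0.22.

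Apoe was read by 1 probe printed on 10 spots, which were averaged. It read 7.75, 7.82, 7.70 and 7.79 in deficient brains of 18 months, against 7.69, 8.20, 7.70 and 7.67 in wild-type brains of 18 months. In the young groups it read 8.73, 7.83, 7.67 and 7.79 in deficient brains, against 7.76, 7.52, 7.75 and 8.08 in wild-type brains. The highest readings, 8.73, 8.20 and 8.08, are array 1 of the deficient 4-month group, array 2 of the wild-type 18-month group and array 4 of the wild-type 4-month group. These are the 3 arrays on which G and C rich probes read high. The lowest, 7.52, is array 2 of the wild-type 4-month group, on which such probes read low. The genotype difference was -0.05 ± 0.20 at 18 months and 0.23 ± 0.20 at 4 months (adjusted p = 0.974 and 0.589). Without array 1 of the deficient 4-month group that difference was -0.02. Astrocytes, which make most Apoe, had 0 of 10 marker genes called between the genotypes at either age. Between the ages in deficient brains 1 of 10 was called, Aqp4, a water channel of astrocyte end feet, at -0.67 ± 0.14 (adjusted p = 0.025).

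**Figure D2:**
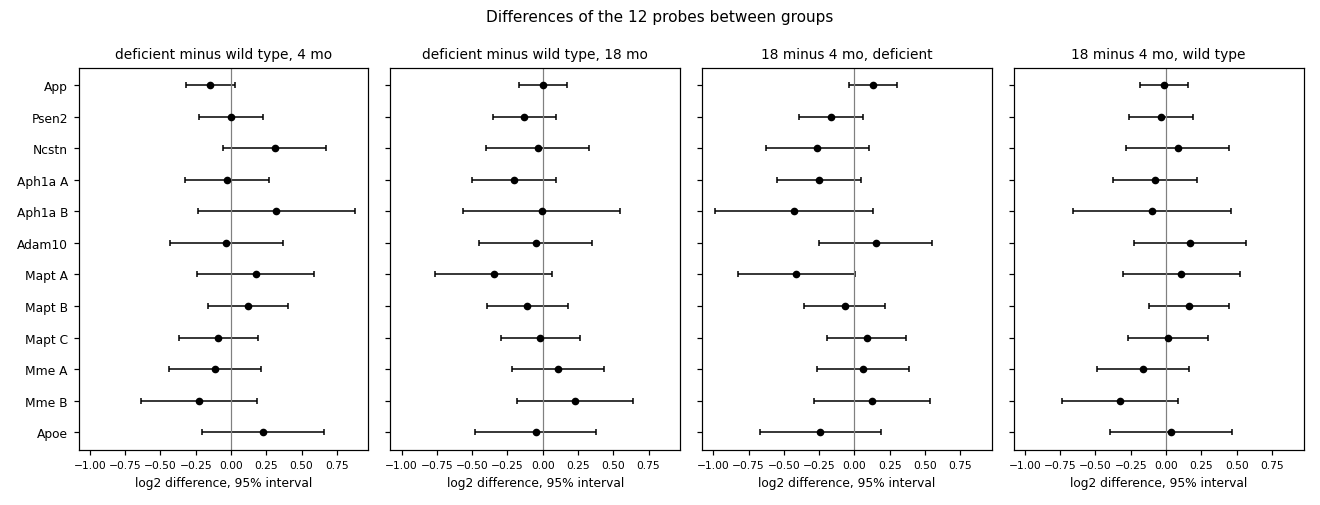
Differences of the 12 member probes in 4 contrasts. The x axis is the log2 difference with its 95% interval from limma (n = 4 arrays a group), and the vertical line marks 0. All intervals include 0, the widest are those of Aph1a B and the narrowest those of App.

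The members most raised on array 1 of the deficient 4-month group were those whose probes hold 55% G and C. There Aph1a B lay 0.93, Apoe 0.89 and Mapt A 0.83 above their means over the 16 arrays. Among the 3 members at 35%, Adam10 lay 0.68 and App 0.23 below theirs, but Psen2 lay 0.27 above. Over all kept probes the median deviation on that array was 0.71 at 50% G and C or more (6635 probes) and -0.37 below 40% (11487 probes). The tau probes show the gradient within 1 gene, with deviations of 0.83, 0.19 and 0.13 at 55%, 50% and 45%. Array 2 of the wild-type 18-month group gave 0.50 for Mapt A, 0.41 for Aph1a B and 0.36 for Apoe, and -0.16 for Adam10.

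**Figure D3:**
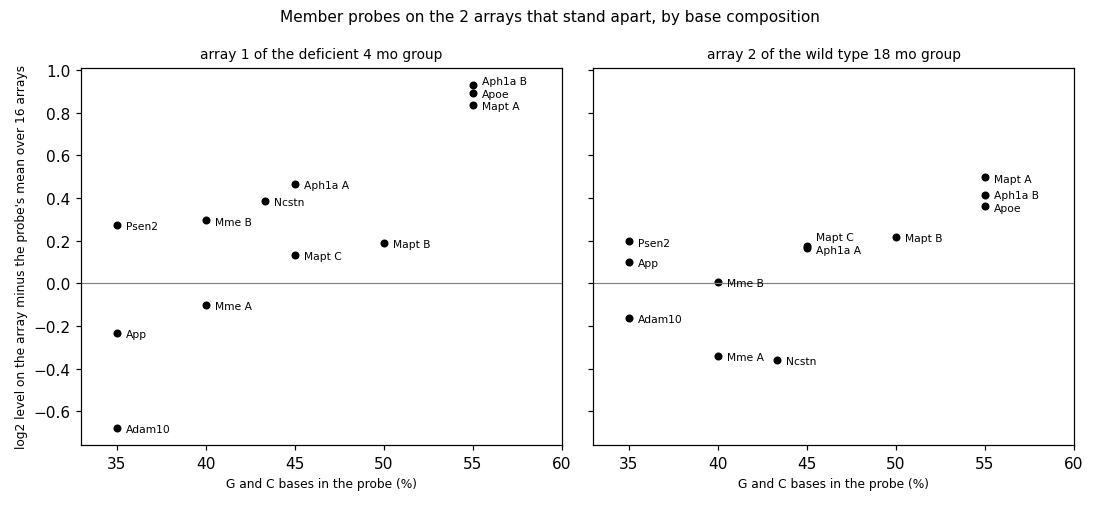
Member probes on the pair of arrays that stand apart. The x axis is the share of G and C bases in the probe in percent, and the y axis is the log2 level on the array minus the mean of the probe over the 16 arrays. Each point is a probe, and the 3 probes at 55% lie highest on both arrays, at 0.83 to 0.93 on array 1 of the deficient 4-month group.

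To see how far the spread of the members goes with base composition, each array was also centred within classes of equal G and C share, a setting chosen after seeing the data. The residual SD of Apoe was then 0.07, against 0.30 without centring. That of Mapt A was 0.09, against 0.29, and that of Adam10 was 0.16, against 0.28. It was smaller for 8 of the 12 probes. Psen2 went the other way, at 0.24 with centring against 0.13 without, and App had 0.10 against 0.07. Over all kept probes the median was 0.20 with centring against 0.25 without.

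With centred levels, the genotype difference of Apoe was 0.00 ± 0.07 at 18 months and 0.03 ± 0.07 at 4 months. Its age difference was -0.01 ± 0.07 in deficient and 0.02 ± 0.07 in wild-type brains. Mapt A read 6.07, 6.10, 6.23 and 6.21 in deficient brains of 18 months, against 6.47, 6.55, 6.41 and 6.36 in wild-type brains of 18 months. The gap between the genotypes remained at 18 months, at -0.30 ± 0.08, and missed the threshold with an adjusted p of 0.0587. This was the lowest adjusted p of a member in any contrast and setting. At 4 months the centred difference of Mapt A was -0.02 ± 0.08, and the interaction was -0.27 ± 0.11 (adjusted p = 0.287). Mapt B and Mapt C, centred in the same way, differed by -0.08 ± 0.13 and -0.02 ± 0.12 between the genotypes at 18 months, so the gap was seen by 1 of 3 tau probes. The App difference at 4 months shrank to -0.07 ± 0.09.

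**Figure D4:**
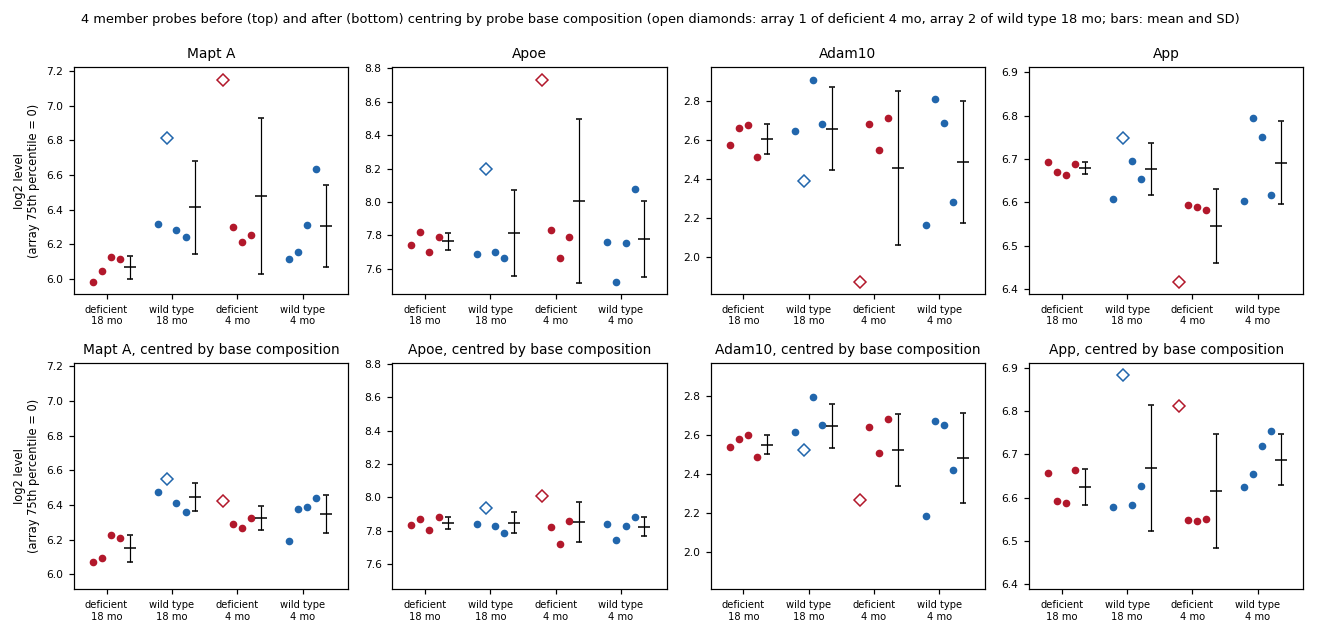
Levels of 4 member probes on the 16 arrays before (top row) and after (bottom row) centring each array within classes of probe base composition. The y axis is the log2 level with the 75th percentile of the array at 0, bars are the group mean and SD (n = 4), and open diamonds are the arrays that stand apart. Apoe and Mapt A draw together, with residual SDs of 0.07 and 0.09, while the open diamonds of App end up highest in their groups.

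Some members followed each other closely over the arrays. Over the 16 arrays the highest Pearson's r between probes of different members was 0.90, between Mapt A and Apoe, and the lowest was -0.81, between Adam10 and Apoe. Without the pair of arrays that stand apart these values were 0.54 and -0.55. The points share their arrays, and with them the array's base composition trend. For each member, the 3 other genes of 14827 searched whose level followed it most closely over the 16 arrays were listed as a description. Apoe was followed by Cox4i1 (r = 0.99), a subunit of the respiratory chain, by Dctn1 (0.98), a subunit of dynactin, and by Rabac1 (0.98). Over the other 14 arrays these values were 0.93, 0.91 and 0.88. Mapt A was followed by Mcrip1, Tpgs1 and Selplg (0.97 each, 0.88, 0.88 and 0.86 without the pair), and Adam10 by Commd7 (0.97), Arl2bp (0.96) and Ttc39b (0.96), each at 0.93 or 0.94 without the pair.

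Aph1a A was followed by Map4k4 and Lrrk1 (r = 0.92 each, 0.92 and 0.88 without the pair), App by Hectd2 (0.91), Fgfr1op2 (0.88) and Itga11 (0.88), and Psen2 by Hp1bp3 (0.90), Macroh2a2 (0.88) and Sh2d2a (0.88). The dim probes reached less, Ncstn 0.77 with Rab44, 0.76 with Pigz and 0.74 with Tmem210, and Mme A 0.74 with Pla2g3, 0.71 with Efcab12 and 0.69 with Arhgef10.

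The pathways around the members were described with 7 lists of other genes, 86 genes in all, of which 84 had a kept probe. Each gene is given by its probe with the highest mean. Between the genotypes 3 of 84 were called higher and 1 lower in deficient brains at 4 months, against 0.599% and 0.831% of all probes. At 18 months 2 were called higher and 1 lower, against 0.85% and 0.505%. Between the ages 1 was called higher and 2 lower at 18 months in deficient brains, against 1.17% and 0.934%, and 0 in wild-type brains, against 0.375% in either direction. The calls in deficient brains fell on genes of lipoprotein handling and of microtubules. Which probe of Sorl1 and of Stmn1 was the brighter differed between the genotypes. By the other probe Sorl1 was not called between the genotypes at 4 or 18 months (adjusted p = 0.075 and 0.448 in limma). Stmn1 was not called by its other probe either (0.583 and 0.995). The counts between the genotypes thus depend on the choice of probe. The median difference of the 84 was 0.09 at 4 months and -0.01 at 18 months between the genotypes, where it was 0.02 and 0.01 over all probes.

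Of the 20 genes of lipoproteins, their receptors and lipid transfer, Sorl1 and Lpl were called higher in deficient brains at both ages. Sorl1 encodes a sorting receptor that steers App away from the compartments where it is cut. Its brighter probe, at chr9:41776572-41776631, read 4.03, 4.04, 4.24 and 3.71 in deficient brains of 18 months, against 2.95, 2.96, 3.68 and 3.14 in wild-type brains of 18 months. At 4 months it read 4.15, 4.27, 4.15 and 4.13 in deficient brains, against 3.06, 3.14, 3.27 and 3.23 in wild-type brains. All deficient arrays lay above all wild-type arrays. The difference averaged over the ages was 0.91 ± 0.11 (1.88-fold, adjusted p = 0.000136).

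The dimmer Sorl1 probe went the other way. At chr9:41772997-41773056, it averaged 3.12 ± 0.17 in deficient and 3.37 ± 0.18 in wild-type brains of 18 months (SD, n = 4 each). At 4 months it averaged 3.03 ± 0.09 in deficient and 3.45 ± 0.09 in wild-type brains. Its difference averaged over the ages was -0.34 ± 0.08 (adjusted p = 0.029), so no direction can be given for Sorl1 as a gene. In wild-type brains the probe called brighter averaged 3.18 at 18 months and 3.17 at 4 months, below the other probe. Which Sorl1 probe is the brighter thus depended on the deficient arrays. With the probes averaged into 1 value, the differences of 0.28 at 18 months and 0.29 at 4 months were not called (adjusted p = 0.213 and 0.132).

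Lpl encodes lipoprotein lipase. Its brighter probe read 0.91, 1.71, 1.10 and 1.02 in deficient brains of 18 months, against -0.05, -0.45, 0.04 and -0.23 in wild-type brains of 18 months. The difference averaged over the ages was 1.28 ± 0.16 (2.44-fold), and that of its dimmer probe was 0.38 ± 0.13 (adjusted p = 0.155). At 4 months the call for Lpl was lost without array 3 of the deficient, or array 1 or 4 of the wild-type, 4-month group (adjusted p up to 0.069). It was also lost with the probes of Lpl averaged, at 0.69 (adjusted p = 0.082).

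Pltp, a phospholipid transfer protein, and Lcat, an enzyme that esterifies cholesterol on lipoproteins, changed with age in deficient brains. Pltp read 1.64, 1.33, 1.68 and 1.67 at 18 months, against 2.42, 2.07, 2.10 and 2.23 at 4 months, without overlap. Its age difference was -0.62 ± 0.11 in deficient brains (adjusted p = 0.011) and 0.19 ± 0.11 in wild-type brains, and the interaction was -0.82 ± 0.16 (adjusted p = 0.043). Lcat read -0.17, -0.22, 0.11 and -0.20 at 18 months in deficient brains, against 0.44, 0.60, 0.51 and 0.80 at 4 months, a difference of -0.71 ± 0.12 (adjusted p = 0.009). In wild-type brains the age difference of Lcat was -0.19 ± 0.12, and its interaction was not called (adjusted p = 0.307).

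The Pltp calls were less steady. Between the genotypes at 4 months Pltp was called higher, at 0.51 ± 0.11 (adjusted p = 0.034). That call was lost without array 1 of the old deficient group, without any 1 of arrays 1, 3 and 4 of the young deficient group and without any 1 of the 4 young wild-type arrays (adjusted p up to 0.105). The interaction call was lost on leaving out any 1 array except array 1 of the young deficient and array 3 of the old wild-type group (adjusted p up to 0.108). Without both arrays that stand apart the 4-month and the interaction calls were lost too (adjusted p = 0.058 and 0.0502).

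Of the 14 microtubule genes, Stmn1 was called lower in deficient brains of 18 months and Map7 in those of 4 months. Stmn1 encodes stathmin, which destabilises microtubules. Its brighter probe read 6.56, 5.75, 5.84 and 5.77 in deficient brains of 18 months, against 7.15, 6.94, 7.30 and 7.22 in wild-type brains of 18 months. The groups lay well apart, with a difference of -1.17 ± 0.20 (adjusted p = 0.006). A second Stmn1 probe close by, at chr4:134029355-134029414 against chr4:134029695-134029754, gave -0.01 ± 0.14 there, so the probes of Stmn1 disagree. In deficient brains this second probe was the brighter, at 6.45 and 6.49 at 18 and 4 months, against 5.98 and 6.31. With the Stmn1 probes averaged, the difference at 18 months was -0.59 and still called (adjusted p = 0.003).

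Map7, which binds along microtubules, differed by -0.44 ± 0.09 between deficient and wild-type brains of 4 months (adjusted p = 0.030). It was higher by 0.38 ± 0.09 at 18 than at 4 months in deficient brains (adjusted p = 0.044). A second, dimmer Map7 probe gave -0.38 ± 0.11 and 0.43 ± 0.11 in these contrasts, both not called (adjusted p = 0.101 and 0.057). The age call was lost on leaving out any 1 of 11 of the 16 arrays (adjusted p up to 0.137). The genotype call was lost without array 2 or 3 of the young deficient group or array 1, 2 or 3 of the young wild-type group (adjusted p up to 0.097). With levels centred by base composition both calls were lost (adjusted p = 0.062 at 4 months and 0.146 with age).

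**Figure D5:**
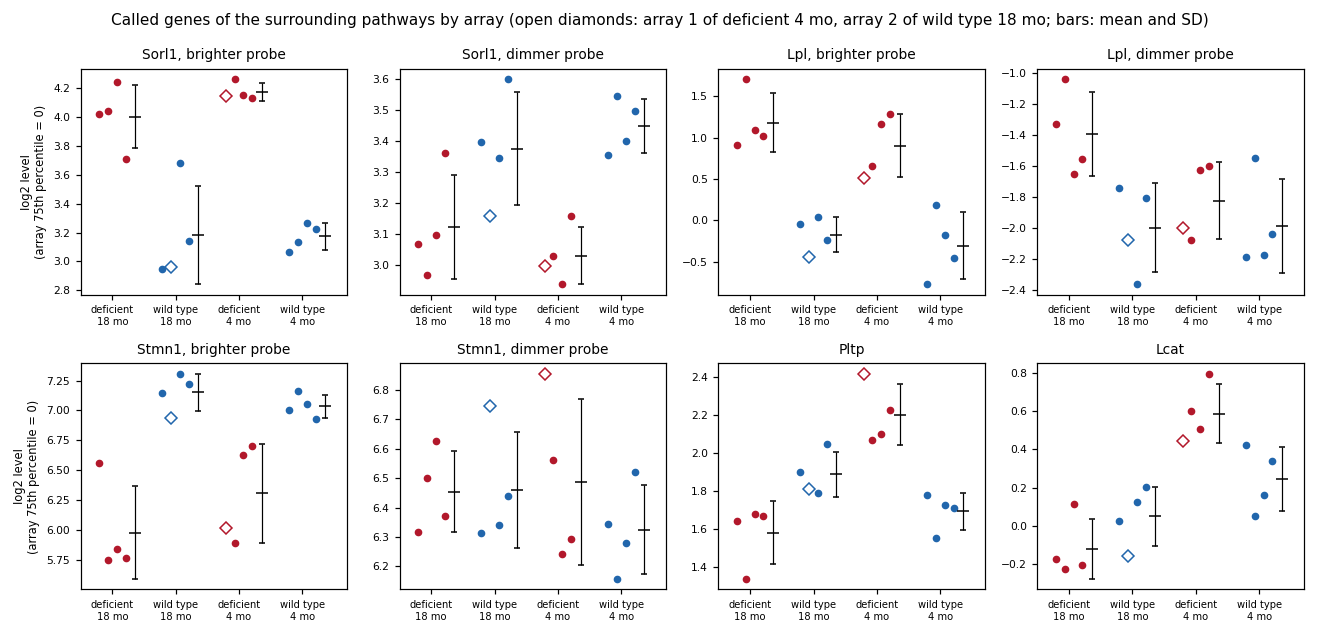
Levels by array of called genes from the surrounding pathways, with both probes where a gene has 2. The y axis is the log2 level with the 75th percentile of the array at 0, bars are the group mean and SD (n = 4), and open diamonds are the arrays that stand apart. The brighter Sorl1 and Lpl probes are higher and the brighter Stmn1 probe lower in deficient brains, the dimmer Sorl1 probe is lower, and the dimmer Stmn1 probe overlaps between the genotypes.

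The other 5 lists had 0 genes called between the genotypes or between the ages within a genotype. Of the 11 genes of the App family and its adaptors, Apbb1, an adaptor that binds the App tail, had the smallest p between the genotypes at both ages and between the ages in deficient brains, at 0.26 ± 0.10 at 4 months, -0.17 ± 0.10 at 18 months and -0.32 ± 0.10 with age. In wild-type brains Dab1, an adaptor of lipoprotein receptors, had it, at 0.17 ± 0.14. Of the 10 measured secretases and partners, these were Adam9 at -0.32 ± 0.10 at 4 months (adjusted p = 0.135), Tspan17 at 0.10 ± 0.12 at 18 months and at -0.35 ± 0.12 with age in deficient brains, and Tspan15 at -0.24 ± 0.11 with age in wild-type brains. Of the 10 measured amyloid-degrading enzymes, these were Mmel1, a relative of neprilysin, at 0.64 ± 0.21 at 4 months (adjusted p = 0.137), Mmp2 at -0.54 ± 0.23 at 18 months and Ece2 at -0.48 ± 0.20 and -0.29 ± 0.20 with age in deficient and wild-type brains.

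Of the 16 tau kinases and phosphatases, these were Mark4 at 0.32 ± 0.12 at 4 months, Mark3 at 0.18 ± 0.09 at 18 months, Fyn at -0.35 ± 0.09 with age in deficient brains (adjusted p = 0.057) and Mark3 at -0.26 ± 0.09 with age in wild-type brains. Fyn, a tyrosine kinase that binds tau, passed the threshold in the age difference averaged over the genotypes, at -0.28 ± 0.06 (adjusted p = 0.043). That call was lost on leaving out any 1 array except arrays 1 and 2 of the young deficient group (adjusted p up to 0.097). Of the 3 other genes of the synuclein family and its partners, these were Sncb at 0.45 ± 0.19 at 4 months and -0.16 ± 0.19 at 18 months between the genotypes and -0.48 ± 0.19 with age in deficient brains, and Sncaip at -0.30 ± 0.10 with age in wild-type brains (adjusted p = 0.428).

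The regions around the members held few genotype differences. Within 5 Mb on either side, between 0 and 2.51% of kept probes were called in the genotype difference averaged over the ages, with 0 of 55 around App and 1 of 168 around Apoe. Around Sorl1 29 of 168 (17.3%) were called, around Lpl 45 of 267 (16.9%) and around Stmn1 39 of 370 (10.5%), against 3.12% of all probes. Around the other called genes the shares were lower, at 5.56% for Map7, 4.76% for Fyn, 2.08% for Pltp and 1.61% for Lcat. The calls around Sorl1, Lpl and Stmn1 ran in both directions, with 12 higher and 17 lower around Sorl1. Their part in the Sorl1, Lpl and Stmn1 differences was not tested.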

How the data were processed

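RNA of 16 whole brains was hybridised in 1 colour (Cy3), 4 arrays in each of 4 groups. Genotype, age and replicate number came from the sample labels, in which the contents of the strain and age tags are swapped. Per the file headers, spot intensities were extracted with Agilent Feature Extraction 10.7.3.1 as a background-subtracted processed intensity, not scaled between arrays. The deposited value table of the series holds log2 values, whose rank order follows the raw median intensity (Spearman's rho of at least 0.99997) and whose column medians lie between 6.606 and 6.622. They were read as quantile-normalised log2 values without background subtraction, an inference, and used as an alternative. The submitters' processing notes name limma with no version.

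Of 59305 non-control spots an array, 98 to 182 flagged as outliers were dropped, and 0 were saturated. The number of arrays limits precision. Levels were log2 processed intensity minus the array's 75th percentile, averaged over spots of a probe. A probe was kept where some group had it well above background on each of its 4 arrays, which held for 33074 probes, 29446 of them on all 16 arrays. A model of the 4 group means was fitted with limma 3.58.1 (R 4.3.3 with the data.table package, version 1.17.8), with 12 residual and 2.94 prior degrees of freedom. P-values of 7 contrasts were adjusted by Benjamini and Hochberg over all kept probes (threshold 0.05). They measure only the spread between these samples, about whose animals the labels say no more. In a simulation of the 4-month genotype contrast on 33074 probes with 200 changed, 21% were recovered at a log2 change of 0.5 and 61% at 1. The simulated spread was drawn for each probe alone, without the base composition trend of the arrays. These shares need not hold for the real data.

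The members and gene lists were chosen with earlier results of these data known. Every member probe is reported. Of each list, the genes called in a contrast are named, up to 4 with the smallest p, and otherwise the 1 gene with the smallest p. For each member, the 3 genes with the highest Pearson correlation are named, except 1 gene that is not reported here. Coordinates are those of the scanner files (mm9), with no genome used here, so exons and untranslated regions are not given. Symbols were updated through RefSeq's GRCm38 table.

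Alternatives were normexp background correction (offset 50), quantile normalisation, the deposited table, no filter, a filter on all arrays, 1 probe for each gene, the mean of a gene's probes, the replicate number as a block and leaving out each array in turn. Centring by probe base composition (5% classes) and leaving out both arrays that stand apart were chosen after seeing the data. Same-numbered arrays did not deviate together (24 pairs, r from -0.42 to 0.25), so the numbers were not taken to pair samples.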

Additional observations from a re-analysis of the deposited data

Results flagged for a closer look

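In groups of 4 arrays, 1 array was far from the others, by Dixon's criterion, in 8 of 76 sets of 4 (19 probes in 4 groups). For independent sets chance gives about 1 in 20. These sets share their arrays, and the probes outside the members were chosen because they were called. The count can therefore not be set against that rate. Of the 8 sets, 5 concern members and all 5 lie on the pair of arrays that stand apart. On array 1 of the deficient 4-month group App read 6.42, Mapt A 7.15 and Apoe 8.73. On array 2 of the wild-type 18-month group Mapt A read 6.81 and Apoe 8.20. In the other 3 sets, all in deficient brains of 18 months, Pltp read 1.33 on array 2, Stmn1 6.56 on array 1 and Lcat 0.11 on array 3.

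The genotype difference of Pltp itself differed between the ages, with an interaction of -0.82 ± 0.16 (limma, adjusted p = 0.043, n = 4 arrays a group). This call was lost in 15 of the 24 alternatives that were not chosen after seeing the data (adjusted p up to 0.141). The interaction also goes with slide row.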

How the results depend on the processing

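Every member stayed uncalled in all 7 contrasts under every alternative run, and the lowest adjusted p of a member was 0.0587 (Mapt A, centred by base composition). In some alternatives member probes had an unadjusted p under 0.05 in limma. At most 3 of 12 did in a contrast, with age in deficient brains without array 3 of the young group. In all alternatives run, Sorl1, Lpl and Stmn1 averaged over the ages, Lpl and Stmn1 at 18 months, and Lcat and Pltp with age in deficient brains stayed called. Except where probes were averaged, the calls of Sorl1, Lpl and Stmn1 rest on the brighter probe. Averaged over the ages, the other probe gave -0.34 for Sorl1, 0.38 for Lpl and 0.08 for Stmn1, so for Sorl1 and Stmn1 the probes disagree. With the probes of a gene averaged, the calls of Sorl1 at 18 and 4 months and of Lpl at 4 months were lost (adjusted p of 0.213, 0.132 and 0.082).

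The counts of all probes called moved by over 1.5 times in these settings. Under normexp they were 312 between the genotypes at 4 months, 410 and 66 between the ages in deficient and wild-type brains, 47 in the interaction and 294 in the averaged age difference. With no filter they were 282 and 153 between the genotypes at 18 and 4 months, 207 and 82 between the ages in deficient and wild-type brains, 35 in the interaction, and 573 and 219 in the averaged genotype and age differences. The interaction had 43 calls with 1 probe for each gene and 44 with the mean of a gene's probes, where fewer features were tested. With the replicate number as a block there were 250 calls between the genotypes at 4 months, 358 between the ages in deficient brains and 41 in the interaction. The block ended the calls of Map7 at 4 months and with age in deficient brains and of Fyn in the averaged age difference (adjusted p of 0.073, 0.092 and 0.087), as did normexp (0.057, 0.080 and 0.067) and no filter (0.093, 0.130 and 0.133). With centring by base composition they were 749 and 1061 between the genotypes at 18 and 4 months, 1527 between the ages in deficient brains, 130 in the interaction, and 1718 and 918 in the averaged genotype and age differences. The cause was not tested.

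Leaving out 1 array gave 256 to 693 calls between the genotypes at 18 months and 144 to 549 at 4 months, 176 to 893 and 78 to 164 between the ages in deficient and wild-type brains, 44 to 103 in the interaction, and 238 to 541 in the averaged age and 710 to 1265 in the averaged genotype difference. The lowest counts came without array 2 of the old deficient group (genotype at 18 months, age in deficient brains, interaction), array 1 of the young wild-type group (genotype at 4 months) and array 3 of that group (age in wild-type brains, averaged age difference). With no filter on dim probes the calls of Lpl at 4 months, Lcat in the averaged age difference, Map7 in the averaged genotype difference and Pltp at 4 months and in the interaction were lost too (adjusted p of 0.058, 0.050, 0.054, 0.101 and 0.141).

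With 4 arrays a group, the design limits what can be seen. The 95% intervals of the members had bounds of up to 0.99 on the log2 scale between 2 groups, for Aph1a B, and up to 0.32 for App. Ncstn and both Mme probes are dim, slide goes with genotype, and slide row goes with the interaction of genotype and age.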
